A study of Mus musculus with 12 samples.

Results

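The genes described here encode the machinery that presents peptides on major histocompatibility complex (MHC) class II molecules: H2-Aa, H2-Ab1, H2-Eb1, Cd74, Ciita, H2-DMa, H2-DMb1 and H2-Oa. These 8 genes were chosen by symbol for what they do, with earlier results of these data known. All 8 were found among the 37991 genes of the count table. They were followed in 12 thymic lymphomas, 8 labelled responder and 4 labelled non-responder to restoration of p53, with 1 RNA-seq library per tumour. Every mouse was of the C57BL/6 background and carried the genotype p53neo/R172H;R26CreER/GNZ, in which tamoxifen activates a Cre recombinase made from the R26 locus and Cre restores wild-type p53 from the neo allele. Both groups received weekly tamoxifen, and both carried the mutant R172H allele, so no untreated tumour serves as a control. Response was called from magnetic resonance imaging as growth or shrinkage, and each tumour was taken after the last scan, so all levels were measured in whole pieces of tumour after treatment. The labels describe the tumours as independent biological samples and give neither a batch nor the tumour size.

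As background, a class II molecule is a pair of an alpha and a beta chain that carries a peptide from the endosome to the cell surface, where CD4 T cells read it. The invariant chain, encoded by Cd74, holds the groove closed until it is cut away, H2-DM then exchanges its remnant for a peptide, and H2-O restrains H2-DM. The transactivator CIITA is required for transcription of these genes. In the thymus, dendritic cells, B cells, macrophages and epithelial cells carry class II, whereas mouse T cells and thymocytes largely do not. Mice of the C57BL/6 background transcribe the beta chain of the I-E molecule but make no I-E protein, because their alpha-chain gene is defective.

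The genes lie close together in the MHC, apart from Ciita and the invariant chain gene. In GENCODE M21 (GRCm38) H2-Ab1 spans chr17:34257689-34269419, H2-Aa chr17:34282744-34287823 on the opposite strand and H2-Eb1 chr17:34305867-34316674. H2-Oa lies at chr17:34092340-34095234, H2-DMa at chr17:34119541-34139101 and H2-DMb1 at chr17:34153072-34160230. Ciita lies at chr16:10480059-10528418. All 8 are protein-coding, and the values are counts over whole genes. These positions were not used in the counting.

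Class II promoters are known for a shared module in which an X box is followed downstream by a Y box, an inverted CCAAT. The stretches below are from class II genes whose promoter windows were used here and held ATTGG, except H2-DMa and H2-DMb1. They were not chosen by how closely the genes varied together. Each runs from 50 bases before the Y-box core to 15 bases after it, 5′ to 3′ on the strand of the gene, with the letters ATTGG in capitals. GCAAC, the core of the X box, is also in capitals where it lay 15 to 40 bases before ATTGG.
H2-Aa: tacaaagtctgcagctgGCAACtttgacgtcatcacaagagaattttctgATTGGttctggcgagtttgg
H2-Eb1: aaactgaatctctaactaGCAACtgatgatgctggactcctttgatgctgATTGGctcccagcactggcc
H2-Oa: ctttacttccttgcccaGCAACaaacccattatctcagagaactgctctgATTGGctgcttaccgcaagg
H2-Ob: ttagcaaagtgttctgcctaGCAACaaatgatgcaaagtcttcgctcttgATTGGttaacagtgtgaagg
H2-Eb2: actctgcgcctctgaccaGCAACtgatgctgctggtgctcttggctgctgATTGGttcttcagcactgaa
H2-DMb2: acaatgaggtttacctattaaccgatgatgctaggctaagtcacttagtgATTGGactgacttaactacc

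The sequences are from RefSeq (GRCm38.p6) and lie at chr17:34287852-34287921 (H2-Aa, minus strand), chr17:34305758-34305827 (H2-Eb1), chr17:34092286-34092355 (H2-Oa), chr17:34238798-34238867 (H2-Ob), chr17:34325525-34325594 (H2-Eb2) and chr17:34145109-34145178 (H2-DMb2). H2-Ob, H2-Eb2 and H2-DMb2 are class II chains outside the 8 genes. The ATTGG core began 48 bases before the transcript start of H2-Aa, 59 before that of H2-Eb1 and 43 before that of H2-Oa, counted from the RefSeq start. The GENCODE start of H2-Oa lies further upstream, and 16 bases of its stretch are in GENCODE exons. The gap between GCAAC and ATTGG was 28 bases in H2-Aa and H2-Oa, 27 in H2-Eb1 and H2-Eb2 and 25 in H2-Ob. In H2-DMb2 the letters GCAAC were not in the window. The window of H2-DMb1 also held ATTGG without GCAAC. Of 2 windows of H2-DMa, 1 held ATTGG on the strand of the gene and neither held the pair. Both H2-DMa windows, from chr17:34122582 and chr17:34125268, start inside the gene as GENCODE places it. All 70 bases of the H2-DMb1 stretch are in GENCODE exons, so it is not printed. These windows thus do not show whether the promoters at the GENCODE starts hold the pair. Over all 32851 promoter windows of 250 bases, 33.8% held ATTGG on either strand, 29.9% held GCAAC and 1.04% held the pair at this spacing. The letters searched were chosen with these promoters in view, and a match is a description of the sequence, not of binding.

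Counts per library lay between 20796860 and 30265753, and each library was scaled by the trimmed mean of M values (TMM). Levels are given as CPM, each count divided by the scaled total of its library in the usual unit. A filter on low counts kept 18612 genes, all 8 among them. The lowest count of any of them in any library was 73, for H2-DMb1, and the highest was 33068, for Cd74. The error given below is the standard deviation (SD) between tumours. The p-values set the group difference against the variation between tumours as each tool models it, not against this SD. Tests are edgeR quasi-likelihood tests, adjusted by Benjamini-Hochberg over the 18612 genes with a threshold of 0.05, and each log2 fold change gives non-responders relative to responders, with its standard error (SE).

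All 8 class II genes had lower mean levels in non-responders, but none passed the test in edgeR and the groups overlapped for each of them. The means differed from 1.53-fold for H2-Oa to 4.80-fold for H2-Aa. The same 6 tumours were the lowest for every one of the 8 genes: the 4 non-responders and responders 2 and 3. The 6 other responders were all higher, and the most class II RNA was found in responder 1 for 7 of the 8 genes. In bulk tissue, fewer class II-bearing cells and less RNA per cell cannot be told apart.

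**Figure D1:**
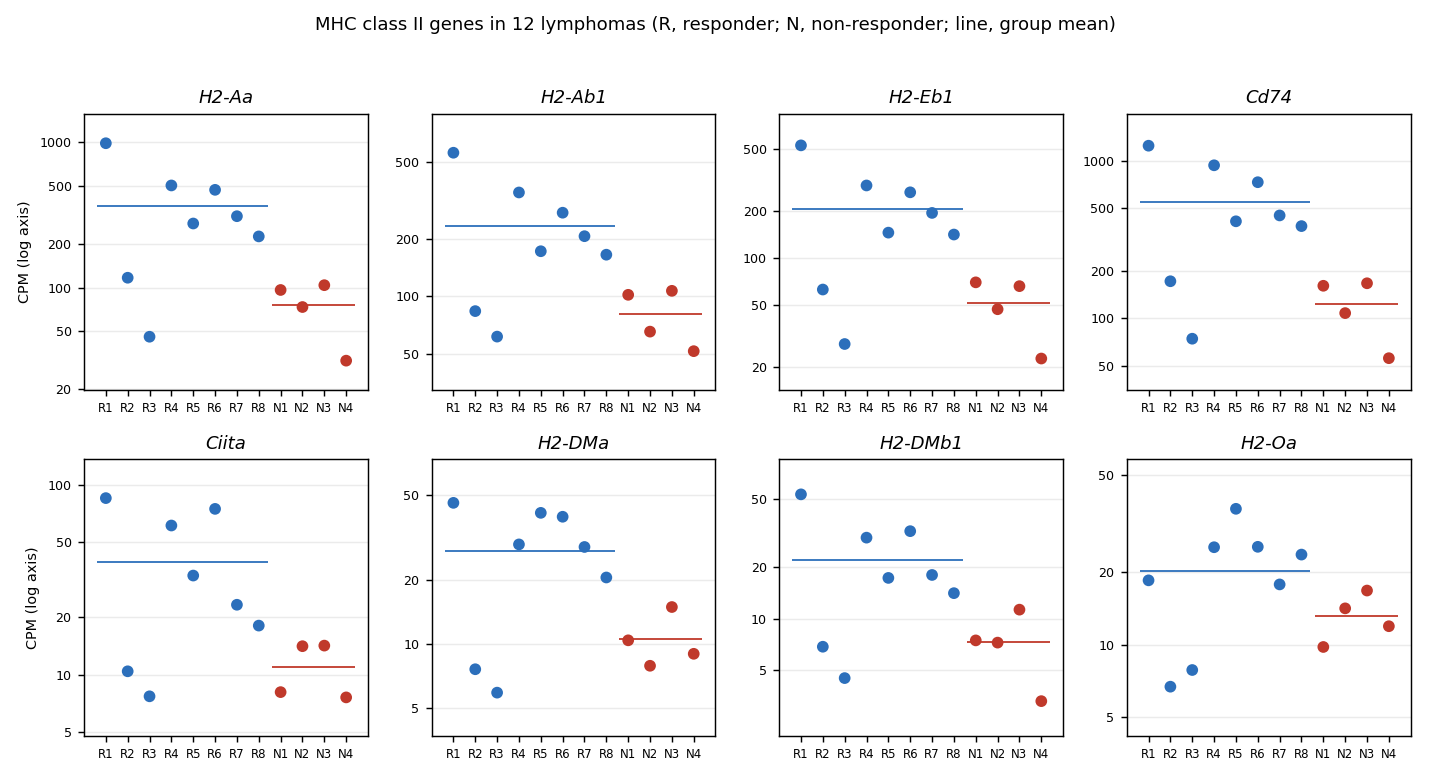
CPM of each class II gene (log axis) in responders 1 to 8 (R, blue) and non-responders 1 to 4 (N, red), with 1 point per tumour and a line at each group's mean. Responder 3 sits among or below the non-responders in every panel, as does responder 2 except for H2-Aa (117 CPM) and Cd74 (172 CPM), where it lies just above them, and responder 1 is highest except for H2-Oa, where responder 5 is highest at 36.3 CPM.

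The chains of the I-A molecule, the class II molecule that C57BL/6 mice display, set the pattern. H2-Aa, the alpha chain, ran from 46.0 CPM to 983 CPM in responders, with a median of 293 CPM. In non-responders 1 to 4 it stood at 96.4, 73.6, 104 and 31.5 CPM. Non-responder 4 was the lowest of all 12 tumours, and responders 2 and 3, at 117 and 46.0 CPM, were the lowest responders; only responder 3 was inside the range of the non-responders. The means were 366 ± 294 CPM (SD, n = 8) and 76.3 ± 32.5 CPM (SD, n = 4). In log2 terms the difference was -2.26 (SE 0.68, edgeR adjusted p = 0.117).

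H2-Ab1, the beta chain of I-A, ran from 61.8 to 560.4 CPM in responders with a median of 189 CPM. Its non-responder values were 102, 65.6, 107 and 51.9 CPM. Again only responders 2 and 3, at 83.9 and 61.8 CPM, overlapped them. The log2 fold change was -1.52 (SE 0.53, edgeR adjusted p = 0.129), smaller than that of its partner H2-Aa. The log2 ratio of H2-Ab1 to H2-Aa was -0.49 ± 0.39 among the 8 responders and 0.17 ± 0.38 among the 4 non-responders (SD), and was highest in non-responder 4 (0.72) and responder 3 (0.42), the tumours with the least H2-Aa.

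H2-Eb1, which encodes the beta chain of I-E, ran from 28.0 to 526 CPM in responders with a median of 169 CPM. Its non-responder values were 69.6, 46.8, 65.8 and 22.6 CPM, so the order of the tumours was close to that of H2-Aa. The log2 fold change was -2.01 (SE 0.66, edgeR adjusted p = 0.120). The partner of this chain, listed as the pseudogene H2-Ea-ps, did not pass the filter on low counts and lay at or below 0.408 CPM in every tumour.

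Cd74, at chr18:60803848-60812652 in GENCODE M21 (GRCm38), had the highest level per kilobase of exon of the 8 genes, as given below. It ran from 74.3 to 1246 CPM in responders with a median of 431 CPM, and stood at 161, 108, 167 and 55.9 CPM in non-responders 1 to 4. Responder 2, at 172 CPM, was just above the highest non-responder, and responder 3 was below 3 of the 4. The log2 fold change was -2.16 (SE 0.65, edgeR adjusted p = 0.117). Cd74 kept its proportion to H2-Aa more closely than any other gene but H2-Eb1, with a log2 ratio between 0.34 and 0.89 over the 12 tumours.

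Ciita, which encodes the transactivator, ran from 7.68 to 84.9 CPM in responders with a median of 28.2 CPM. In non-responders it was at 8.08, 14.1, 14.2 and 7.58 CPM. Responders 1, 6 and 4 were highest, at 84.9, 74.5 and 60.9 CPM, and these were also the tumours with the most H2-Aa. The log2 fold change was -1.83 (SE 0.64, edgeR adjusted p = 0.130). Ciita is known to start from several promoters that differ between cell types, and the counts sum over them. Its exons share 3.45% of their bases with Dexi on the opposite strand, and no source says whether reads were counted by strand.

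The chains of H2-DM, the peptide exchanger, were lower in the same tumours. H2-DMa ran from 5.91 to 45.9 CPM in responders (median 28.9 CPM), and the 4 non-responders stood at 10.4, 7.90, 14.9 and 8.99 CPM. Responders 2 and 3, at 7.61 and 5.91 CPM, were the lowest of the 12. Its log2 fold change was -1.37 (SE 0.51, edgeR adjusted p = 0.142). H2-DMa shares 10.4% of its exon bases with Brd2 on the opposite strand, and if reads were counted without strand, those of the shared bases cannot be told apart.

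H2-DMb1 ran from 4.51 to 53.1 CPM in responders (median 17.6 CPM), and the 4 non-responders stood at 7.48, 7.26, 11.3 and 3.31 CPM. Its log2 fold change was -1.58 (SE 0.60, edgeR adjusted p = 0.145). H2-DMb2 is a close copy of H2-DMb1, and the counting could have split or dropped reads that fit both. H2-DMb2 itself had responder values from 4.68 to 47.4 CPM and non-responder values from 5.46 to 7.36 CPM. Its log2 fold change was -1.95 (SE 0.56, edgeR adjusted p = 0.117).

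H2-Oa, a chain of the inhibitor H2-O, departed from the others. It ran from 6.70 to 36.3 CPM in responders with a median of 21.0 CPM, and stood at 9.77, 14.1, 16.7 and 11.9 CPM in non-responders. Responders 2 and 3, at 6.70 and 7.85 CPM, were below every non-responder, and non-responder 3 was close to responder 7 (17.7 CPM) and responder 1 (18.4 CPM). The log2 fold change was -0.61 (SE 0.40, edgeR adjusted p = 0.366). An antisense gene, BC051537, which is not among the counted genes, shares 22.8% of the exon bases of H2-Oa.

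The proportion of H2-Oa to H2-Aa varied widely among the tumours. The log2 ratio of H2-Oa to H2-Aa was -5.73 in responder 1, the tumour with the most class II RNA, and -1.39 in non-responder 4, the tumour with the least. Its mean was -3.90 ± 0.995 among the 8 responders and -2.42 ± 0.787 among the 4 non-responders (SD), with overlap. The ratio of H2-DMb1 to H2-Aa moved less, from -4.21 to -3.19, and was -3.95 ± 0.27 and -3.35 ± 0.22. These ratios are descriptions with no test.

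**Figure D2:**
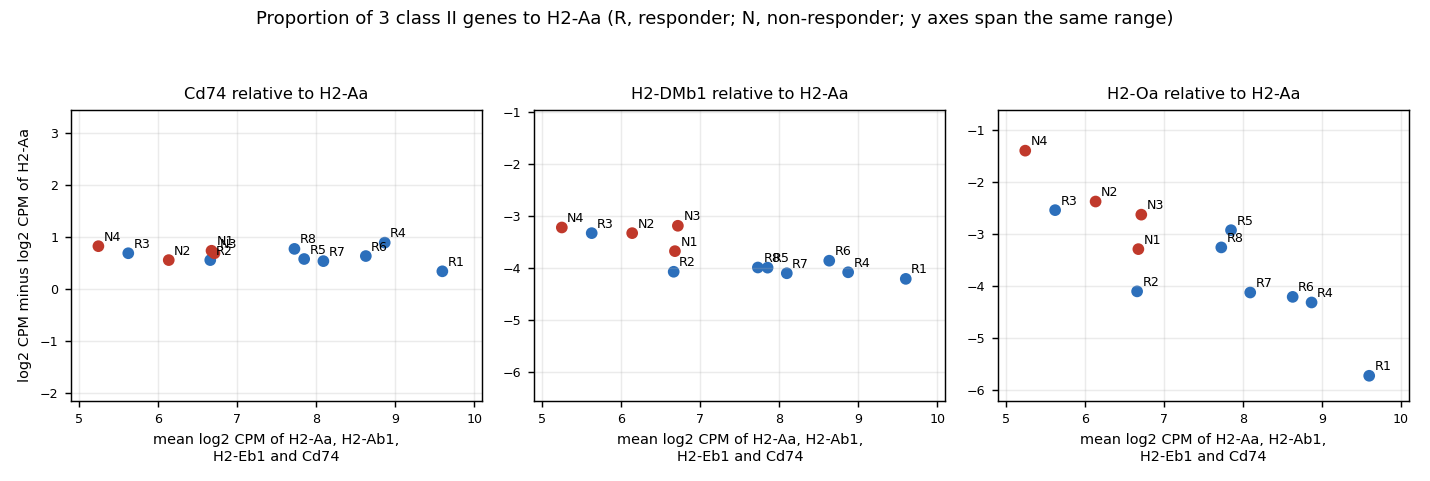
Log2 CPM of Cd74, H2-DMb1 and H2-Oa minus that of H2-Aa (y axes of equal span) against the mean log2 CPM of H2-Aa, H2-Ab1, H2-Eb1 and Cd74, with 1 point per tumour (R, responder; N, non-responder). H2-Aa enters both axes; the Cd74 points lie between 0.34 and 0.89, and the H2-Oa points run down from -1.39 in N4 to -5.73 in R1.

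Between genes, levels were compared per kilobase of exon, with the bases of all GENCODE exons of a gene as its length. In responders Cd74 was highest at 328 ± 235 CPM per kilobase (SD, n = 8). H2-Eb1, H2-Aa and H2-Ab1 followed at 106 ± 81.0, 96.5 ± 77.5 and 91.0 ± 62.9. H2-Oa and H2-DMb1 stood at 14.3 ± 6.92 and 13.1 ± 9.46, and H2-DMa (7.92 ± 4.37) and Ciita (4.10 ± 3.16) were lowest. These SDs are between tumours, and since all genes were measured in the same tumours, they do not test a difference between genes. Within tumours, the log2 CPM ratio of H2-Eb1 to H2-Aa, before scaling by length, varied less, at -0.803 ± 0.105 among the 8 responders (SD). In non-responders the order was Cd74 (73.3 ± 30.9), H2-Ab1 (31.8 ± 10.5), H2-Eb1 (26.3 ± 11.1), H2-Aa (20.1 ± 8.55), H2-Oa (9.34 ± 2.11), H2-DMb1 (4.37 ± 1.94), H2-DMa (3.06 ± 0.894) and Ciita (1.15 ± 0.382). The transactivator thus stood at the bottom of the order in both groups, and H2-Oa stood further above H2-DMb1 in non-responders than in responders.

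Against all genes, edgeR called 0 of the 8 and 0.0% of the 18612 at an adjusted p under 0.05 (the lowest was 0.0786), while 8 of 8 had a negative log2 fold change against 51.5% of all genes. At an unadjusted edgeR p under 0.05, 7 of the 8 were lower (all but H2-Oa) against 16.1%, and 0 of the 8 were higher against 7.73%. The median log2 fold change of the 8 was -1.71, and that of all genes tested was -0.02. Since the 8 were chosen with earlier results of these data known, the shares in this paragraph are a description. DESeq2 called the same 7 as lower, against 10.4% of all genes, with adjusted p from 0.00582 (H2-Aa) to 0.0496 (H2-DMa). limma-voom with quality weights called 4 as lower, against 4.48%: H2-Aa, H2-Ab1, H2-Eb1 and Cd74, with adjusted p from 0.0398 to 0.0468. The groups did not overlap for 0 of the 8 genes, against 1.18% of all genes that were lower in this way. The call thus depended on the tool, and the overlap came from responder 3 alone for H2-Aa and Cd74 and from responders 2 and 3 for the other 6 genes.

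That the 4 non-responders and responders 2 and 3 were the 6 lowest tumours held for 8 of 8 class II genes and for 8.22% of all genes tested. This grouping was read from the class II values and is given as a description. The gap between these tumours and the other 6 was widest for Cd74, from 172 to 385 CPM (2.24-fold), and for H2-Eb1, from 69.6 to 141 CPM (2.03-fold). It was narrowest for H2-Oa, from 16.7 to 17.7 CPM (1.06-fold). The first principal component of all genes, with 46.2% of the variance, put the same 6 tumours on one side, at scores of 54.8 to 105.6, and the others at -131.1 to -22.3.

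Rag1, the recombinase gene of immature thymocytes, was high in the 6 tumours with the least class II RNA and also in responder 1. It stood between 168 and 1756 CPM in the 4 non-responders, and at 895, 1204 and 1262 CPM in responders 1, 2 and 3. In responders 4 to 8 it was at 2.91 CPM or less. Among the 7 tumours with high Rag1, responder 1 had 983 CPM of H2-Aa and the other 6 had 31.5 to 117 CPM. In log2 CPM, Pearson's r of Rag1 with the mean of H2-Aa, H2-Ab1, H2-Eb1 and Cd74 was -0.598 over the 12 tumours. Without responder 1 and non-responder 4 it was -0.891. With the log2 CPM of Rag1 as a covariate, the log2 fold change of H2-Aa was -2.27 and that of Cd74 was -1.98, close to the values without it. That of H2-DMa was -0.97, and that of H2-Oa turned to 0.15. All 4 non-responders had high Rag1, as did only responders 1, 2 and 3, so this fit leans on those responders.

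**Figure D3:**
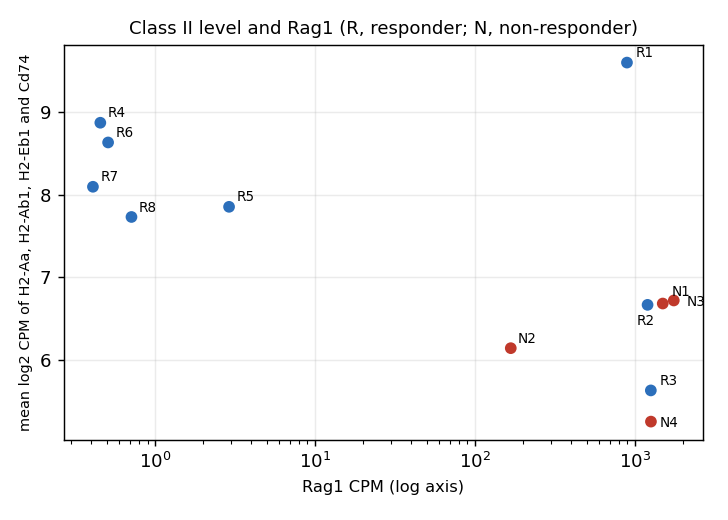
Mean log2 CPM of H2-Aa, H2-Ab1, H2-Eb1 and Cd74 against the CPM of Rag1 (log axis), with 1 point per tumour (R, responder; N, non-responder). R1 combines 895 CPM of Rag1 with the highest class II level, 9.60, while the other 6 tumours with high Rag1 lie between 5.25 and 6.72.

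Within the class II genes other than H2-Oa the tumours kept nearly the same order. As a measure of likeness, each gene's log2 CPM was correlated over the 12 tumours with the mean of H2-Aa, H2-Ab1, H2-Eb1 and Cd74, leaving the gene itself out of that mean. Pearson's r was 0.996 for H2-Aa and Cd74, 0.997 for H2-Eb1, 0.986 for H2-Ab1, 0.985 for H2-DMb1, 0.934 for Ciita, 0.912 for H2-DMa and 0.673 for H2-Oa. Spearman's rho was 0.979 for each of the first 4, 0.986 for H2-DMb1, 0.958 for Ciita, 0.902 for H2-DMa and 0.762 for H2-Oa. Over the 8 responders alone r was 0.991 for H2-DMb1, 0.948 for Ciita, 0.911 for H2-DMa and 0.696 for H2-Oa. Spearman's rho in these responders was 0.976, 0.952, 0.833 and 0.476 for the same genes. Without responder 1 and non-responder 4, the tumours farthest from the median, r was 0.972, 0.908, 0.921 and 0.772. The points share a library each, so these values describe the tumours and carry no p.

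Genes outside the class II set that followed it most closely included markers of dendritic cells. Of 15210 named genes compared over the 12 tumours, 167 had an r above 0.9 and the median r was 0.04. Clec9a, a receptor of cross-presenting dendritic cells, came first (r = 0.983, rho = 0.993). It stood at 17.3 CPM in responder 1 and at 0.363 CPM in non-responder 4. The serine protease inhibitor gene Serpina3g (0.966), the phospholipase gene Pla2g4a (0.965), the costimulatory receptor gene Cd40 (0.962) and Fgd2 (0.957) came next. The remaining 5 of the first 10 were Il34, a ligand of the CSF1 receptor (0.956), the kinase gene Map3k8 (0.956), Itgax, which encodes the integrin CD11c of dendritic cells (0.954), Scimp, a class II-associated adaptor (0.954), and Serpinb1b (0.953). In the 8 responders alone, Clec9a and Serpina3g had an r of 0.978, and the 10 genes ranged down to 0.92 (Il34).

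Markers of the cells that carry class II were then set beside it. Of 15 dendritic-cell markers, 13 were lower in non-responders, against 51.5% of all genes, with a median log2 fold change of -1.75. edgeR called 0 of them, DESeq2 called 10 as lower (10.4% of all genes) and limma-voom called 3 (4.48%). The summed level of the 15 ran from 115 to 446 CPM among responders and from 115 to 303 CPM in non-responders, and none of the 15 was at 0 throughout. Zbtb46, a transcription factor gene of classical dendritic cells, had a median of 12.5 CPM in responders (2.70 to 22.2 CPM) against 4.06 CPM in non-responders (2.50 to 4.40 CPM). Flt3, the growth factor receptor of this lineage, averaged 15.8 ± 6.64 and 7.67 ± 0.939 CPM (SD, n = 8 and 4), and Xcr1 averaged 7.05 ± 4.47 and 3.30 ± 0.643 CPM. Ccr7, the receptor by which mature dendritic cells home and which T cells also use, was at 41.9 ± 36.6 and 6.13 ± 1.88 CPM. Irf8 and Bst2 went the other way, with log2 fold changes of 0.07 and 0.17. Pearson's r with the class II mean over the 12 tumours ran from -0.351 (Bst2) to 0.983 (Clec9a) over the 15 markers, and was 0.366 for Irf8.

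The difference between class II and the dendritic-cell markers was within 1 SD between the groups. The mean log2 CPM of H2-Aa, H2-Ab1, H2-Eb1 and Cd74 minus that of the 15 markers was 4.65 ± 0.546 among the 8 responders and 4.32 ± 0.359 among the 4 non-responders (SD). It was highest in responder 1 (5.88) and lowest in non-responder 4 (3.83). Class II minus the B-cell markers described below was 4.38 ± 0.92 and 4.18 ± 1.01, also within 1 SD. For thymic epithelial markers it was 4.94 ± 0.718 and 4.57 ± 1.01, within 1 SD too. For macrophage markers it was 2.12 ± 0.571 and 0.985 ± 0.574, a difference of more than 1 SD. Class II by itself had means of 7.88 ± 1.26 and 6.2 ± 0.685. These values and the covariate fit below are descriptions, and the part of dendritic cells in the class II difference was not tested.

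B-cell markers were lower in non-responders as well, but were spread differently among the responders. All 13 measured markers had negative log2 fold changes (median -2.13), against 51.5% of all genes. edgeR called 0, DESeq2 called 8 as lower (10.4% of all genes) and limma-voom called 0 (4.48%). Their summed level ran from 212 to 3855 CPM among responders and from 220.4 to 600.4 CPM in non-responders, and none was at 0 throughout. The mean log2 CPM of the list was 4.23 or more in responders 1, 4, 5 and 6. It was 2.79 and 2.02 in responders 7 and 8, below the 3.01 of non-responder 2. Responders 7 and 8 had 309.8 and 225 CPM of H2-Aa, against 73.6 CPM in non-responder 2. Pearson's r with the class II mean over the 12 tumours was 0.746 for Cd79a, 0.702 for Ms4a1 and 0.735 for Pax5, and lay between 0.583 and 0.851 over the 13 markers.

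Macrophage markers as a list had a median closer to 0. Of 12 markers, 10 were lower in non-responders (51.5% of all genes), with a median log2 fold change of -0.20. edgeR and limma-voom called 0, and DESeq2 called 1, Timd4, as lower, a share below its 10.4% of all genes. Their summed level ran from 801 to 3273 CPM among responders and from 1081 to 3318 CPM in non-responders, and none was at 0 throughout. C1qa, a complement component of tissue macrophages, averaged 225 ± 116 CPM in responders against 194 ± 102 CPM in non-responders, and Adgre1, which encodes F4/80, averaged 49.4 ± 37.4 and 45.8 ± 16.6 CPM. Csf1r, the receptor of the macrophage growth factor that dendritic cells can also express, was at 167 ± 101 and 66.8 ± 26.8 CPM. Non-responder 3, which had the highest macrophage sum of all tumours, had 104 CPM of H2-Aa. Pearson's r with the class II mean over the 12 tumours ran from 0.313 (Adgre1) to 0.887 (Csf1r) over the 12 markers. For C1qa it was 0.745, and 0.907 over the 8 responders alone.

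Thymic epithelial cells, which carry class II for the selection of CD4 T cells, had 13 of 15 markers lower in non-responders (median log2 fold change -1.27), against 51.5% of all genes. edgeR called 0. DESeq2 called 4 as lower and 1 as higher, against 10.4% and 2.8% of all genes, and limma-voom called 2 as lower and 1 as higher, against 4.48% and 4.37%. The marker that both called higher was the claudin gene Cldn4, which ran from 3.81 to 35.2 CPM in responders and from 21.1 to 67.5 CPM in non-responders (1.80, SE 0.50, edgeR adjusted p = 0.117). Their summed level ran from 142 to 325 CPM among responders and from 124 to 324 CPM in non-responders, and none was at 0 throughout. Aire, the gene that drives self-antigen display in the thymic medulla, was at 9.18 ± 5.53 and 3.93 ± 2.99 CPM. Foxn1, the master regulator of thymic epithelium, was at 1.29 ± 0.728 and 0.310 ± 0.359 CPM, and was at 0 in responder 3 and non-responder 2. Epcam was at 38.2 ± 29.5 and 27.1 ± 35.1 CPM. Pearson's r with the class II mean over the 12 tumours ran from -0.621 (Cldn4) to 0.854 over the 15 markers.

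Of 12 T-cell markers, 10 had positive log2 fold changes, against 48.5% of all genes, with a median of 0.37 and a range from -0.85 to 1.01. edgeR and DESeq2 called 0, and limma-voom called 1 as higher, Thy1, against 4.37% of all genes. Their summed level ran from 941 to 3179 CPM among responders and from 2664 to 3296 CPM in non-responders. Responders 2 and 3, at 3179 and 2767 CPM, lay with the non-responders here too. Every tumour carried T-cell RNA, as its label says: Cd3e, a chain of the T-cell receptor complex, was at 27.7 CPM or more throughout and averaged 77.3 ± 49.4 CPM in responders against 89.9 ± 36.4 CPM in non-responders. Pearson's r with the class II mean over the 12 tumours was -0.758 for Cd3e and ran from -0.806 to 0.401 over the 12 markers, and since CPM are shares of 1 total, levels of different genes are not independent.

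**Figure D4:**
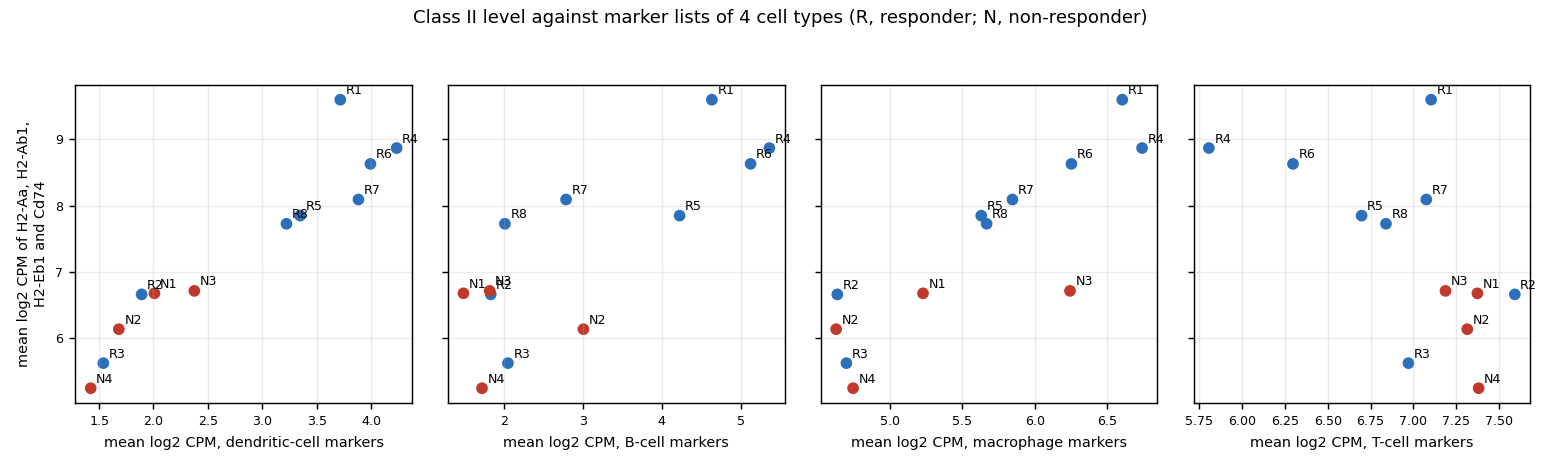
Mean log2 CPM of H2-Aa, H2-Ab1, H2-Eb1 and Cd74 against the mean log2 CPM of dendritic-cell, B-cell, macrophage and T-cell marker lists, with 1 point per tumour (R, responder; N, non-responder). R7 and R8, at 2.79 and 2.02 on the B-cell axis, lie below N2 (3.01) there but above it in class II, and N3 lies at 6.24 on the macrophage axis, close to R6 (6.25).

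When the means of the dendritic-cell and B-cell lists were entered as covariates, the class II differences shrank. The log2 fold change of H2-Aa was then -0.26, that of Cd74 -0.17 and that of H2-Eb1 -0.01. Those of H2-Ab1 (0.015), Ciita (0.10), H2-DMb1 (0.19), H2-DMa (0.28) and H2-Oa (0.42) turned positive, and none of the 8 had an unadjusted edgeR p under 0.05. Over all genes the number with such a p went from 4428 to 1257 in the same fit. This fit holds the marker level fixed and does not separate cell number from RNA per cell. The dendritic-cell list had r with class II from -0.351 (Bst2) to 0.983 (Clec9a), so its mean is not independent of class II.

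Outside the 8 genes, the other class II chains had the same direction. H2-Ob, the partner of H2-Oa, averaged 20.2 ± 14.7 CPM in responders against 5.91 ± 2.99 CPM in non-responders (-1.77, SE 0.69, edgeR adjusted p = 0.153). The corresponding value of H2-Oa was -0.61, and whether these chains of H2-O differ in it was not tested. H2-Eb2 ran from 4.89 to 37.5 CPM and from 3.77 to 18.6 CPM (-1.08, SE 0.59, edgeR adjusted p = 0.276). Together with H2-DMb2, 3 of 3 measured chains were lower (51.5% of all genes), edgeR called 0, DESeq2 called 2 (10.4%) and limma-voom called 1 (4.48%).

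The factors that bind class II promoters together with CIITA did not share this direction. Rfx5, Rfxap and Rfxank, which form the complex on the X box, and Nfya, Nfyb and Nfyc, which bind the Y box, all had positive log2 fold changes, as did Creb1. These 7 of 7 compare with 48.5% of all genes, and their median was 0.25. edgeR and DESeq2 called 0 of them. limma-voom called 1, Nfyb, as higher, where it called 4.37% of all genes as higher. Nfyb averaged 50.9 ± 18.6 CPM in responders against 81.9 ± 14.6 CPM in non-responders (0.69, SE 0.26, edgeR adjusted p = 0.143). Rfx5 was at 19.8 ± 5.08 and 23.6 ± 2.44 CPM (0.25, SE 0.21). Ciita was thus the one gene of this regulatory group with a lower mean in non-responders.

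Genes of antigen processing and class II turnover were mixed. Of 10, 7 were lower in non-responders (51.5% of all genes) and 3 were higher, and the median log2 fold change was -0.63. edgeR called 0, and DESeq2 and limma-voom each called 1, Cst3, as lower, against 10.4% and 4.48% of all genes. Ctss, the protease that makes the last cuts in the invariant chain, averaged 340.1 ± 219.8 CPM in responders against 157 ± 44.0 CPM in non-responders (-1.11, SE 0.50). Marchf1, a ubiquitin ligase that removes class II from the surface of dendritic and B cells, was at 30.9 ± 20.5 and 11.9 ± 7.17 CPM (-1.38, SE 0.60). Cst3, a protease inhibitor abundant in dendritic cells, was at 171 ± 79.4 and 80.4 ± 24.4 CPM (-1.09, SE 0.39, edgeR adjusted p = 0.134). Among lysosomal proteases of wider expression, Ctsl was at 165 ± 67.8 and 120.3 ± 48.2 CPM (-0.46, SE 0.36). Ctsd was at 741 ± 203 and 1194 ± 813 CPM (0.69, SE 0.33) and Ctsb at 654 ± 179 and 777 ± 478 CPM (0.25, SE 0.32), with the highest value of both, 2408 and 1477 CPM, in non-responder 3. The other non-responders had 692 to 888 CPM of Ctsd, within the range of the responders. They had 403 to 656 CPM of Ctsb, where non-responder 2, at 403 CPM, lay below the lowest responder (424 CPM).

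**Figure D5:**
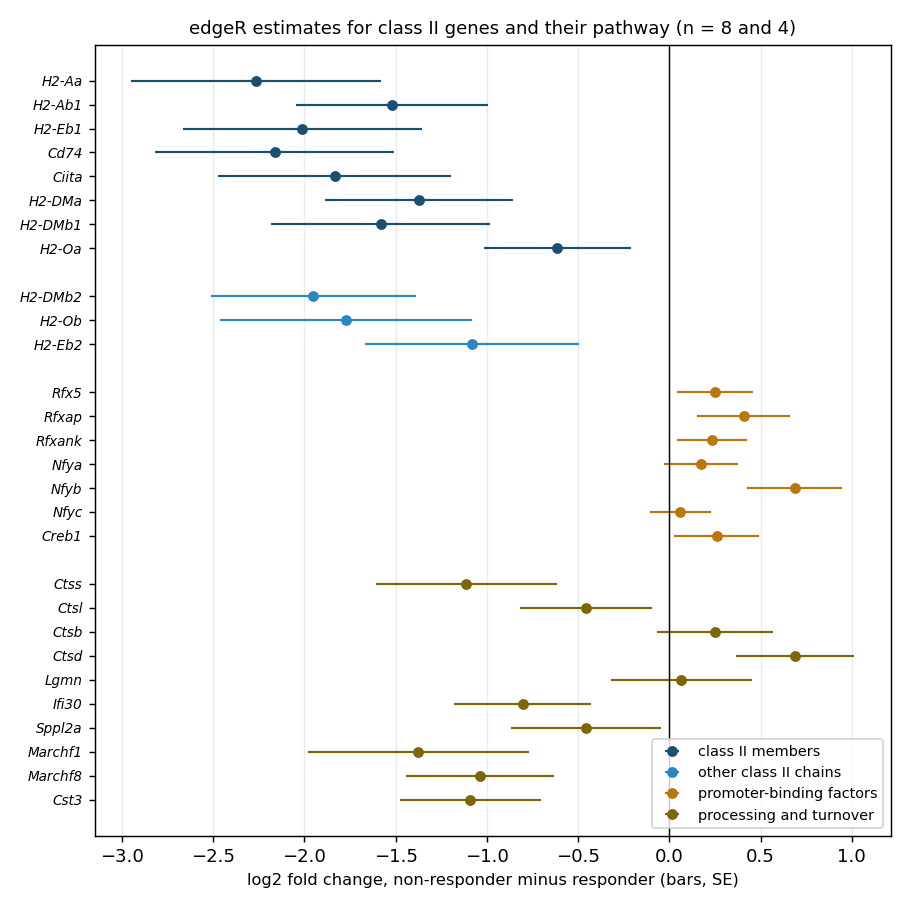
edgeR log2 fold changes, non-responder minus responder, with SE bars for the 8 class II genes, 3 other class II chains, 7 promoter-binding factors and 10 processing and turnover genes (n = 8 and 4). The class II chains and Ciita lie between -2.26 and -0.61, and the promoter-binding factors between 0.06 and 0.69; no gene passed the edgeR threshold.

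Interferon gamma is the best-known inducer of Ciita outside professional antigen-presenting cells, so its pathway was read beside it. Of 14 measured genes, 13 were lower in non-responders (51.5% of all genes), with a median log2 fold change of -0.62. edgeR and DESeq2 called 0, and limma-voom called 1, Jak2, as lower, against 4.48% of all genes. Irf1, a transcription factor gene of this pathway, averaged 116 ± 47.8 CPM in responders against 88.8 ± 39.2 CPM in non-responders. Ifng did not pass the filter, and stood at 6.33 CPM in responder 1 and at 0.878 CPM or less elsewhere. Responder 1 was also the highest tumour for Cxcl9 (130.3 CPM, against 18.2 CPM in responder 4, the next) and Gbp2 (255 CPM, against 91.8 CPM in responder 4).

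Class I presentation, which most nucleated cells carry, had a median closer to 0 than class II. Of 13 measured genes, 9 were lower in non-responders (51.5% of all genes) and 4 were higher, and the median log2 fold change was -0.18. edgeR called 0, and DESeq2 and limma-voom each called 1, Tap2, as higher, where they called 2.8% and 4.37% of all genes as higher. Nlrc5, the class I counterpart of Ciita, averaged 64.8 ± 38.5 CPM in responders against 26.6 ± 19.0 CPM in non-responders (-1.28, SE 0.55). B2m, the light chain of class I, was at 839 ± 400.1 and 545 ± 129 CPM (-0.62, SE 0.34), and H2-K1 at 644 ± 338 and 292 ± 85.2 CPM (-1.14, SE 0.47). H2-K1 belongs to a family of near-identical genes, so its counts are uncertain. The peptide transporter gene Tap2 ran from 59.0 to 109.6 CPM and from 103 to 145 CPM (0.56, SE 0.17, edgeR adjusted p = 0.117).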

How the data were processed

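The authors deposited raw counts per Ensembl gene, whole numbers in 1 table of 37991 genes. Per the submitters' processing notes they came from HTSeq, with a comparison by DESeq; the notes name NCBIM37 and the labels' extract protocol names mm10, so the build is not settled. As to the aligner, tool versions and strand setting: not given in the sources used here. Symbols were matched by Ensembl identifier to GENCODE M21 (32938 of 37991). Counts were filtered with filterByExpr, scaled by TMM and tested with edgeR 4.0.16 in R 4.3.3 (quasi-likelihood, robust, group as the only term, two-sided). Log2 CPM used a prior count of 2. Alternatives used limma 3.58.1, DESeq2 1.42.0 and sva 3.50.0. The edgeR, limma-voom and DESeq2 fits without covariates were tested on simulated data. Of 50 genes changed 2-fold, they called 12%, 12% and 34%, and of 50 changed 4-fold, 48%, 46% and 76%. Of 18025 unchanged genes they called 0.0222%, 0.0333% and 0.255%. The closest pair of libraries still differed beyond sampling noise, with a chi-square of 58.8 for each degree of freedom.

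The genes and lists were chosen with earlier results of these data known. Named are the 8 genes, genes of the other class II lists, preset defining markers, from the other lists some of the 4 with the lowest p, and the 10 with the highest r. Promoter windows for H2-Ab1, Cd74 and Ciita were not used here. Some of the preset markers are not reported here.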

Additional observations from a re-analysis of the deposited data

How the results depend on the processing

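All 8 class II genes stayed lower in non-responders under RLE and upper-quartile scaling, without a filter, with a filter of 1 CPM in 4 libraries, without robust dispersion, in DESeq2 and limma-voom, and with any 1 tumour left out. The count of these genes called was 0 in edgeR, 4 in limma-voom and 7 in DESeq2, and 0 with each tumour left out (range 0 to 0). Over all genes it was 0 in edgeR (4428 at an unadjusted p under 0.05), 1 at a threshold of 0.1, 1647 in limma-voom and 2462 in DESeq2. It ran from 0 to 5 with 1 tumour left out: 5 without responder 3, 3 without non-responder 1 and 1 without non-responder 3. With dendritic-cell and B-cell marker means as covariates 3 of the 8 stayed lower and the median log2 fold change turned to 0.057; H2-Ab1 (0.015), Ciita (0.10), H2-DMb1 (0.19), H2-DMa (0.28) and H2-Oa (0.42) turned. With 1 surrogate variable the median was -0.28, and H2-DMa (0.25) and H2-Oa (0.80) turned; with Rag1 as a covariate H2-Oa turned (0.15). At an unadjusted edgeR p under 0.05, 7 of the 8 were lower, 5 with Rag1 as a covariate and 0 with the surrogate variable or the marker means; over all genes such calls went from 4428 to 1371, 1133 and 1257. The cause was not tested. The mean log2 CPM of the 8 genes differed by -1.38, by -1.39 with a prior count of 0.5, and by -1.67 to -1.15 with 1 tumour left out. No paired analysis was possible because the labels give no pairing between the groups. The labels give no replicate numbers either, and those used here only name the tumours. The lowest count of any of the 8 genes in a library was 73, and marker lists reach down to 0.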
